A study of Mus musculus with 7 samples.

Results

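The genes described here carry out antigen presentation by major histocompatibility complex (MHC) class I molecules in the mouse mammary gland. The 10 members were the rows named H2-K1, H2-D1, H2-T23, H2-Q4, H2-Q7, B2m, Tap1, Tap2, Tapbp and Nlrc5, out of 27998 genes in the count matrix, and each was found on exactly 1 row. Single-cell RNA-seq was performed on the abdominal (#4) glands, freed of lymph nodes, of 7 nulliparous female mice collected at diestrus. The young group held 3 mice of 3 to 4 months (A, B and C) and the aged group held 4 mice of 13 to 14 months (A, B, C and D), all of a mixed FVB, 129 and C57BL/6J background. The matrix held 13684 cells in the 13 cell types that the authors had named from clusters of the same cells, among them myoepithelial cells, hormone-sensing (HS) and alveolar (AV) luminal cells, and macrophages in an Ma and an Mb group.

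MHC class I molecules show fragments of a cell's own proteins at its surface. A polymorphic heavy chain pairs with the invariant light chain beta-2 microglobulin, encoded by B2m. Peptides cut by the proteasome are pumped into the endoplasmic reticulum by the transporter formed by Tap1 and Tap2, and tapasin (Tapbp) holds the empty heavy chain beside that transporter until a peptide is loaded. H2-K1 and H2-D1 encode the classical heavy chains read by CD8 T cells. The nonclassical H2-T23 encodes Qa-1, a ligand of CD94/NKG2 receptors of natural killer (NK) cells, H2-Q7 encodes Qa-2, and H2-Q4 is a further Q-region heavy chain. Nlrc5 encodes a transactivator of class I genes. These genes are transcribed in nearly all nucleated cells and respond to interferons and NF-kappa B.

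The heavy chain genes lay in the MHC on chromosome 17 of GRCm38, at chr17:33996017-34000347 (minus strand) for H2-K1, chr17:35262730-35267499 (plus) for H2-D1, chr17:35379617-35385290 (plus) for H2-Q4, chr17:35439155-35443773 (plus) for H2-Q7 and chr17:36029773-36032855 (minus) for H2-T23. Tapbp (chr17:33915899-33929292), Tap1 (chr17:34187553-34197225) and Tap2 (chr17:34203527-34216321), on the plus strand, were in the same complex. B2m was on another chromosome (chr2:122147686-122153083, plus), as was Nlrc5 (chr8:94434356-94527272, plus). All are protein-coding in the annotation.

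RefSeq promoter windows on GRCm38.p6 were on hand for 8 of the 10 members. The 250 bases before the transcript start are shown for 5 of them. The windows of H2-Q4, Tap1 and Tapbp, without a match to the patterns marked below, are not shown. Every window shown holds such a match, so the display does not tell how common matches are among the members. Each runs 5′ to 3′ on the gene's own strand. Capitals mark matches on either strand to GAAANNGAAA, the interferon response pattern, to GGGGATTCCC, a kappa B site, and to TGACGC, the core of the class I X2 box. The motifs do not overlap each other in these windows. The H2-K1 window is chr17:34000348-34000597 (minus), H2-D1 is chr17:35262844-35263093 (plus), H2-Q7 is chr17:35438905-35439154 (plus), H2-T23 is chr17:36032702-36032951 (minus) and B2m is chr2:122147437-122147686 (plus).
H2-K1: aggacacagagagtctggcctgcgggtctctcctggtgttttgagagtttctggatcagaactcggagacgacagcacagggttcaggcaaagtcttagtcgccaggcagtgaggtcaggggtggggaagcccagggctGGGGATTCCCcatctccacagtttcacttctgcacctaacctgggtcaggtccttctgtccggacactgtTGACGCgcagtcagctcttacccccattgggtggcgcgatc
H2-D1: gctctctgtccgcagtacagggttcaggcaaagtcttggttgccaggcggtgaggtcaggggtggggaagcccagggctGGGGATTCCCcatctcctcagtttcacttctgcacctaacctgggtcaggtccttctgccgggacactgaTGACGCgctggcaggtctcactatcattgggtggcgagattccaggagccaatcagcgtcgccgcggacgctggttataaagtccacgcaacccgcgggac
H2-Q7: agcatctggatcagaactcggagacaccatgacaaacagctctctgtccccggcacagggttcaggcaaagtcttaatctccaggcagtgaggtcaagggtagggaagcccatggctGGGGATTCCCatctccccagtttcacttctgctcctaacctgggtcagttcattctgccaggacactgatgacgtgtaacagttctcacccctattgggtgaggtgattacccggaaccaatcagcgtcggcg
H2-T23: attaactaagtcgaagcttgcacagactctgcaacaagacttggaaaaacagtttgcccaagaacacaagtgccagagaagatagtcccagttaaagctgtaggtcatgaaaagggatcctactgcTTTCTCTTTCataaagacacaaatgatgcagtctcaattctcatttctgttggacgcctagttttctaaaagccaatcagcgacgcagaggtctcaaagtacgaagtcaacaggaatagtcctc
B2m: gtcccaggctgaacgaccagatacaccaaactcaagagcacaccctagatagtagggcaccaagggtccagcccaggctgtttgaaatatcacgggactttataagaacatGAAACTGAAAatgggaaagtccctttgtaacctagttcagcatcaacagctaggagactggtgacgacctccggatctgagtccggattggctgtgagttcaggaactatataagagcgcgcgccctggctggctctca

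H2-K1, H2-D1 and H2-Q7 each held the kappa B letters, which occurred in 0.0852% of 32851 windows of that length (28 windows). H2-K1 and H2-D1 also held TGACGC, found in 6.12% of the windows, and shared an unbroken run of 47 identical bases. H2-T23 and B2m held the exact letters of the interferon response pattern, found in 2.98% of windows, without the kappa B letters. Their longest common run was 7 bases. H2-Q4 had no exact match to the 3 patterns, but shared 34 bases in a row with H2-Q7. The Tap1 and Tapbp windows matched none of the 3 patterns. Only exact letters were searched, and variants of these elements were not marked in any window. A window without a match is therefore not shown to lack the element. A match describes letters only, and no protein was shown to bind there by these data.

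Total UMIs (distinct RNA molecules, the counting unit) ranged from 6652599 to 16999625 per mouse, and the median per cell from 4758.5 to 7109.5, with every aged library above every young one. Of 13583 distinct cell barcodes, 101 occurred in more than 1 library. Barcodes were written differently in the 2 age groups, and 3 symbols (Schip1, Gbp6 and Atn1) were counted on one row in young and on another in aged mice, so effects of age and of library handling cannot be told apart. Of 12 cell type marker lists, 10 had their highest summed level in the type of that name, while HS markers were highest in the HS-AV luminal cells and T cell markers in NK cells. The H2 haplotype of each mouse was not given, the reference genome is C57BL/6J, and UMIs of near-identical class I genes can be split between rows or lost. The part of these features in the age differences below was not tested.

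Levels are given as CPM, a gene's share of all UMIs scaled to 1000000, with UMIs summed over the cells of one type in one mouse, for mice with at least 3 such cells. Since 3′ counting gives each molecule 1 tag whatever its length, levels of different genes are compared without a length correction. Within such a sum, fewer positive cells and less RNA per cell cannot be told apart. B2m (199434 UMIs in all) and H2-D1 (152962) were the most abundant members, followed by H2-K1 (76585). The other heavy chains H2-Q4, H2-Q7 and H2-T23 had 18214, 10919 and 10042 UMIs. Tapbp had 9757, Tap2 5560, Tap1 1788 and Nlrc5 only 244, so Nlrc5 values rest on few molecules.

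Endothelial cells stood at the top of the order for most members. H2-K1 was 1841 ± 511 CPM (SD, n = 7) in vascular endothelial cells and 1747 ± 959.6 CPM (SD, n = 5) in lymphatic endothelial cells, followed by NK cells (1697), T and B cells (1525) and Ma macrophages (1422). The middle of the order was held by pericytes (1086), HS luminal cells (1037), Mb macrophages (989.8) and dendritic cells (886). The lowest means were those of myoepithelial cells (801), fibroblasts (769), AV luminal cells (723) and HS-AV luminal cells (601 ± 272 CPM (SD, n = 6)). No neighbours in that order of 13 types differed by more than the larger of their SDs over mice. The order therefore holds between its ends and not from step to step. Each mean pools young and aged mice, and the mix differed by type, here and for the other members. Ma macrophages had 3 young and 0 aged mice, and NK cells 3 and 2. In young mice alone mean H2-K1 was 1517 CPM in vascular endothelial cells, 1422 in Ma macrophages and 1415 in NK cells. It was 1110 in T and B cells and 837 in lymphatic endothelial cells (2 young mice).

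H2-D1 ran from 4781 ± 2626 CPM (SD, n = 5) in lymphatic endothelial cells and 4497 ± 1713 CPM (SD, n = 7) in vascular endothelial cells down to 1190.4 ± 598 CPM (SD, n = 7) in AV luminal cells. The light chain B2m was also highest in vascular endothelial cells, at 5977 ± 1064 CPM (SD, n = 7), and lowest in myoepithelial cells, at 1131 ± 320.3 CPM (SD, n = 7). For B2m 1 of 12 neighbouring steps exceeded the SD, that from HS luminal cells (2413) to AV luminal cells (1354), which was seen in 7 of 7 mice. Fibroblasts ranked 9 of 13 types for B2m (3333) and 11 for H2-K1. Immune cells reached 3470.4 to 4623 CPM of B2m.

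The rarer heavy chains had orders of their own. H2-T23 and H2-Q4 peaked in lymphatic endothelial cells, at 285 ± 206 CPM (SD, n = 5) and 531 ± 373 CPM (SD, n = 5), on 41 and 81 UMIs. H2-T23 was lowest in myoepithelial cells (57.6) and H2-Q4 in dendritic cells (103) and Mb macrophages (104). H2-Q7, by contrast, was highest in NK cells, at 378 ± 266 CPM (SD, n = 5), and in T and B cells, at 312 ± 154 CPM (SD, n = 7), and was lowest in myoepithelial cells, at 67.7 ± 48.0 CPM (SD, n = 7). None of the neighbouring steps of H2-T23, H2-Q4 or H2-Q7 exceeded the larger SD.

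The peptide loading genes differed in the types where they were highest. Tap1 was highest in dendritic cells (70.0 ± 11.5 CPM (SD, n = 5)), NK cells (66.7) and vascular endothelial cells (58.0), and was 12.3 to 15.3 CPM across the 4 epithelial types. Its partner Tap2 was instead highest in HS luminal cells (182 ± 76.6 CPM (SD, n = 7)) and HS-AV luminal cells (132), against 39.9 ± 8.79 CPM (SD, n = 7) in AV luminal cells and 28.1 ± 5.18 CPM (SD, n = 7) in myoepithelial cells. Tapbp had the smallest ratio of highest to lowest mean among the members other than Nlrc5, from 75.2 ± 18.2 CPM (SD, n = 7) in AV luminal cells to 213 ± 38.9 CPM (SD, n = 7) in vascular endothelial cells. Nlrc5 reached 11.7 ± 4.26 CPM (SD, n = 7) in vascular endothelial cells and 9.23 CPM in pericytes, and had no UMI in T and B cells or NK cells, whose sums were small.

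**Figure D1:**
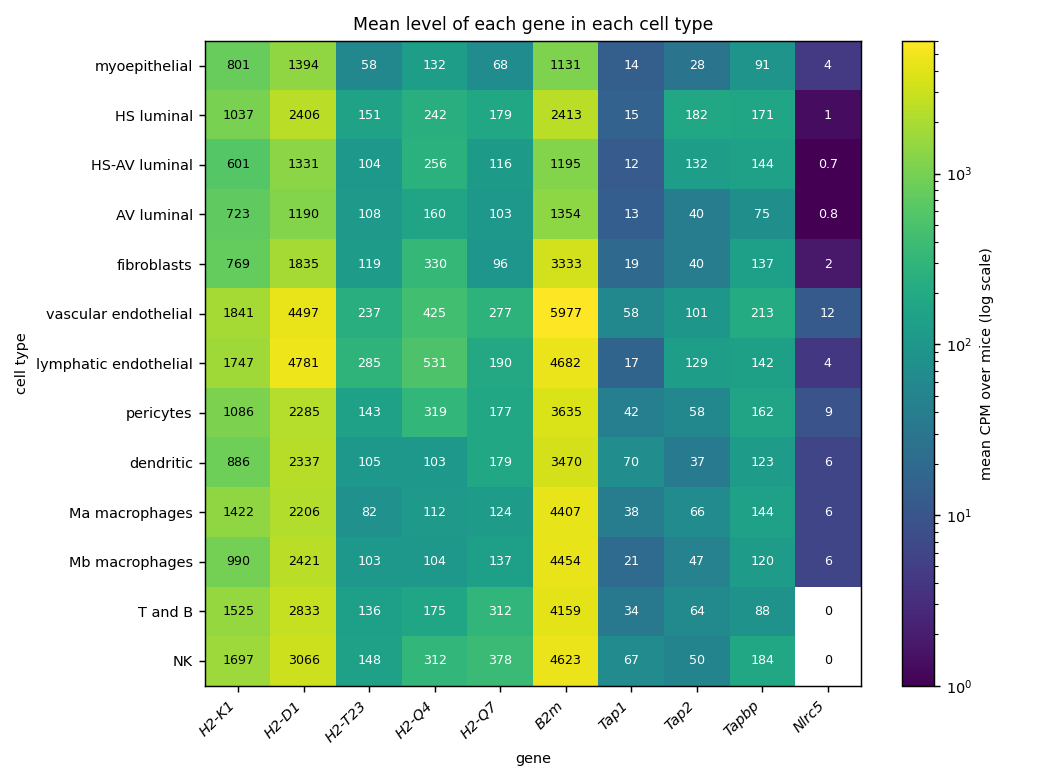
Mean CPM over young and aged mice together of each of the 10 genes (columns) in each of the 13 cell types (rows). The colour is on a log scale and the mean is printed in each cell. B2m and H2-D1 are brightest throughout, reaching 5977 and 4497 CPM in vascular endothelial cells, and Nlrc5 is darkest.

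Differences between cell types were tested on these sums with edgeR's quasi-likelihood test, with the mouse as a term, and calls needed an adjusted p (Benjamini-Hochberg, over all genes tested) under 0.05 together with a fold change of 1.5 or more. Since the types were named by clustering the same cells, these fits describe the types. Vascular endothelial cells exceeded AV luminal cells in 9 of the 9 members that passed the filter on low counts (all but Nlrc5), while 25.9% of genes tested were called higher and 26.1% lower. The log2 differences were 1.85 ± 0.14 SE for H2-D1, 2.23 ± 0.27 for B2m, 1.94 ± 0.18 for Tap1 and 1.31 ± 0.17 for H2-K1, with adjusted p-values of 3.15e-07, 2.38e-05, 2.23e-06 and 3.24e-05. The smallest was that of H2-T23, at 0.87 ± 0.17. The immunoproteasome list held subunits that favour peptides fit for class I and genes of the proteasome activator. It was higher in vascular endothelial cells in 5 of 5 genes, led by Psmb9 (log2 2.40 ± 0.18).

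HS luminal cells exceeded AV luminal cells, the other luminal lineage, in 5 of 9 members, against 19.9% of genes called higher and 22.6% lower. Tap2 led with a log2 difference of 1.91 ± 0.24 (edgeR adjusted p = 1.37e-05). In HS luminal cells its levels were 67.0, 185 and 129.6 CPM in young mice A, B and C and 169.9, 191, 317 and 212 CPM in aged mice A, B, C and D. In AV luminal cells they were 39.2, 48.6 and 52.9 CPM in young mice A, B and C and 42.8, 35.9, 29.3 and 30.8 CPM in aged mice A, B, C and D. Every mouse had more Tap2 RNA in HS than in AV luminal cells, whereas Tap1, the partner chain of the transporter, differed by 0.01 ± 0.20 (adjusted p = 0.959). Tapbp (0.96 ± 0.16), H2-D1 (0.80 ± 0.13), B2m (0.77 ± 0.20) and H2-Q4 (0.67 ± 0.22) were the others called. Psmb8, Psmb9 and Psmb10 and the activator genes Psme1 and Psme2, the whole immunoproteasome list, were also higher in HS luminal cells. Without the mouse term 2 members were called.

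Myoepithelial cells fell below AV luminal cells in H2-T23 (log2 -0.88 ± 0.22, edgeR adjusted p = 0.00458) and H2-Q7 (-0.67 ± 0.18, adjusted p = 0.006), with no member of 9 called higher. At an unadjusted p under 0.05, 3 members were lower and 0 higher, and DESeq2 called 2. Of all genes 25.1% were called lower and 23.1% higher. Without the mouse term 0 members were called, and without the filter on low counts 4. Psmb8, Psmb9 and Psmb10 dropped by 1.48, 2.31 and 1.19 on the log2 scale.

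Mb macrophages, compared with vascular endothelial cells, had less H2-Q4 (log2 -1.97 ± 0.39, edgeR adjusted p = 6.86e-06), Tap2 (-1.17 ± 0.43, adjusted p = 0.0227) and H2-Q7 (-0.86 ± 0.35, adjusted p = 0.0452), that is 3 of 9 members, against 24.5% of genes called lower. None was called higher (0 at an unadjusted p under 0.05), against 12.5% of genes. B2m differed by -0.25 ± 0.39. The count was 1 without young mouse A or young mouse C and 6 with DESeq2.

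The age comparison asked whether these genes changed between young and aged glands within a cell type, and it was fitted in the 8 types with enough mice. H2-T23 was called higher in aged mice in 6 types, H2-D1 in 5, H2-Q7 in 4, H2-K1 and H2-Q4 in 2 each, and Tapbp in 1. B2m, Tap1, Tap2 and Nlrc5 were called in none, and no member was called lower. By type, 5 members were called in myoepithelial cells, 4 each in HS and AV luminal cells, 3 in vascular endothelial cells, 2 each in fibroblasts and pericytes, and 0 in either Mb macrophages or the T and B cells. All 20 called values were rises.

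Those counts stand against the share of all genes called. In myoepithelial cells 12.8% of genes were called higher and 14.8% lower in aged mice, in vascular endothelial cells 14.7% and 12%, and in pericytes 7.19% and 4.61%. The luminal shares were 3.93% and 2.33% in HS and 2.9% and 3.26% in AV cells. In fibroblasts they were 2.07% and 1.11%, for Mb macrophages 0.931% and 0.233%, and for T and B cells 0.219% and 0.438%. The median log2 fold change of the members that passed the filter was 1.01 in myoepithelial cells, 0.87 in HS and 1.23 in AV luminal cells, 0.86 in fibroblasts, 0.25 in vascular endothelial cells and 0.07 in pericytes, while that of all genes tested lay between -0.05 and 0.02 in those 6 types.

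H2-T23 (Qa-1) had the largest log2 fold change of the members in each of the 6 types where it was called. Vascular endothelial cells had 32.1, 61.0 and 77.0 CPM in young mice A, B and C and 596, 279, 217 and 399 CPM in aged mice A, B, C and D, an 8.74-fold rise (log2 fold change 3.13 ± 0.38 SE, adjusted p = 5.56e-05, edgeR). AV luminal cells had 13.8, 48.6 and 43.0 CPM in young mice A, B and C and 177, 178, 119 and 174 CPM in aged mice A, B, C and D (log2 fold change 2.52 ± 0.38 SE, adjusted p = 0.00452, edgeR). In both types every aged mouse was above every young mouse, by a gap wider than the whole young range. HS luminal cells had 22.2, 49.3 and 40.0 CPM in young mice A, B and C and 309.7, 124, 284 and 231 CPM in aged mice A, B, C and D (log2 fold change 2.75 ± 0.33 SE, adjusted p = 0.00182, edgeR). Myoepithelial cells, with the least H2-T23, had 20.8, 24.6 and 13.0 CPM in young mice A, B and C and 107, 63.4, 86.1 and 89.0 CPM in aged mice A, B, C and D (log2 fold change 2.21 ± 0.30 SE, adjusted p = 7.69e-05, edgeR). Again the groups did not overlap.

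In fibroblasts and pericytes the rise in H2-T23 was of like size, 2.41 ± 0.40 and 2.44 ± 0.30 on the log2 scale (edgeR adjusted p = 0.00476 and 0.00115), again without overlap of the groups. In fibroblasts the call was lost when all mice were thinned to equal totals (1.58, adjusted p = 0.0851). Mb macrophages had 19.3, 52.1 and 43.2 CPM in young mice A, B and C and 170.3, 234, 38.7 and 164 CPM in aged mice A, B, C and D, a difference of 2.57 ± 0.61 that was not called (edgeR adjusted p = 0.0996). In T and B cells H2-T23 did not pass the filter, with 0, 126 and 64.6 CPM in young mice A, B and C and 178, 195, 276 and 112 CPM in aged mice A, B, C and D.

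Of the classical heavy chains, H2-D1 rose in more types than H2-K1. H2-D1 in HS luminal cells was 1202, 1475 and 1198 CPM in young mice A, B and C and 3678, 2323, 3725 and 3244 CPM in aged mice A, B, C and D (log2 fold change 1.43 ± 0.20 SE, adjusted p = 0.00331, edgeR). In vascular endothelial cells it was 2867, 3051 and 3080.0 CPM in young mice A, B and C and 7495, 4834, 4337 and 5813 CPM in aged mice A, B, C and D (log2 fold change 1.26 ± 0.19 SE, adjusted p = 0.00028, edgeR). Each aged mouse stood above all young mice in both types. The rise in myoepithelial cells was 1.27 ± 0.25 (edgeR adjusted p = 0.00134), that in AV luminal cells 1.33 ± 0.32 (adjusted p = 0.0372) and that in pericytes 0.63 ± 0.18 (adjusted p = 0.0376). The AV call was lost without any one of young mice A, B or C or aged mice A, C or D (log2 1.09 to 1.52, adjusted p = 0.0662 to 0.137). The pericyte call was lost without young mouse A, B or C or aged mouse B or D (log2 0.52 to 0.71, adjusted p = 0.065 to 0.181).

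H2-K1 was called in myoepithelial cells, where it was 588, 644 and 370.1 CPM in young mice A, B and C and 1183, 779, 1145 and 899.7 CPM in aged mice A, B, C and D (log2 fold change 1.01 ± 0.22 SE, adjusted p = 0.00286, edgeR), and in vascular endothelial cells, where it was 1568, 1429 and 1554 CPM in young mice A, B and C and 2831, 1671, 1586 and 2248 CPM in aged mice A, B, C and D (log2 fold change 0.82 ± 0.20 SE, adjusted p = 0.00804, edgeR). In the latter, aged mice B and C lay just above the young range and aged mice A and D well above it. HS luminal cells (0.69 ± 0.20, edgeR adjusted p = 0.0628), AV luminal cells (1.05 ± 0.36, 0.11) and fibroblasts (0.70 ± 0.30, 0.22) were not called. Pericytes showed the smallest difference, with 1148, 1099 and 1120.4 CPM in young mice A, B and C and 1095, 848, 989 and 1304 CPM in aged mice A, B, C and D (log2 0.07 ± 0.19, edgeR adjusted p = 0.842), and the young values lay inside the aged range.

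The Q-region heavy chains were called in epithelial types and, for H2-Q7, in fibroblasts. H2-Q7 (Qa-2) in AV luminal cells was 58.9, 55.8 and 19.4 CPM in young mice A, B and C and 213, 119, 127 and 125 CPM in aged mice A, B, C and D (log2 fold change 2.04 ± 0.38 SE, adjusted p = 0.0128, edgeR). In HS luminal cells it was 74.3, 73.7 and 57.4 CPM in young mice A, B and C and 376, 123, 323 and 226 CPM in aged mice A, B, C and D (log2 fold change 2.02 ± 0.29 SE, adjusted p = 0.00435, edgeR). No aged mouse overlapped the young mice in either type. Rises of 1.61 ± 0.38 in myoepithelial cells (adjusted p = 0.00506) and 2.15 ± 0.36 in fibroblasts (adjusted p = 0.00478) were also called by edgeR. In fibroblasts H2-Q7 did not pass the filter once all mice were thinned to equal totals, where 0 members were called. In vascular endothelial cells, by contrast, H2-Q7 was 292, 258 and 293 CPM in young mice A, B and C and 399, 187, 205 and 302 CPM in aged mice A, B, C and D (log2 0.32 ± 0.24, adjusted p = 0.339), and the groups overlapped fully.

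H2-Q4 in AV luminal cells was 47.9, 88.1 and 54.1 CPM in young mice A, B and C and 429.9, 114, 193 and 190.0 CPM in aged mice A, B, C and D (log2 fold change 2.18 ± 0.44 SE, adjusted p = 0.0192, edgeR), with aged mouse A far above the rest. This call was lost without young mouse A (log2 2.00, adjusted p = 0.0838) or young mouse C (2.10, 0.0956), which leaves 2 members called in AV luminal cells. Myoepithelial cells also rose, by 1.77 ± 0.31 (adjusted p = 0.000636). Fibroblasts (1.34 ± 0.37, adjusted p = 0.0692), HS luminal cells (0.81 ± 0.22, adjusted p = 0.0527) and vascular endothelial cells (0.70 ± 0.25, adjusted p = 0.0502) missed the threshold and were not called.

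In lymphoid cells H2-Q7 stood the other way. T and B cells had 414, 601 and 323 CPM in young mice A, B and C and 209.9, 280.2, 158 and 197 CPM in aged mice A, B, C and D (log2 -1.01 ± 0.37, edgeR adjusted p = 0.277), so that all aged mice were below all young mice, but the difference was not called. NK cells had 387, 619 and 662 CPM in young mice A, B and C and 94.3 and 128 CPM in aged mice A and B, the only aged mice with at least 3 NK cells, and no fit was made. These values rest on 88 and 80 UMIs. RNA of other types was present in these sums. The summed level of Krt8 and Krt18 in T and B cells was 177 to 3078 CPM in young and 1647 to 3568 CPM in aged mice. In NK cells it was 310 to 2364 CPM in young and 424 to 2552 CPM in aged mice. In T and B cells the B cell markers (Cd79a and Cd79b) were 0 to 21.5 CPM in young and 0 to 275 CPM in aged mice. The NK markers (Ncr1 and Gzma) there were 0 to 947 CPM in young and 0 to 3634 CPM in aged mice. The part of such RNA, or of the mix of lymphocytes, in the H2-Q7 values was not tested.

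The light chain was called in no type, although its estimate varied between types. B2m in vascular endothelial cells was 6334, 6298 and 6668 CPM in young mice A, B and C and 7152, 4482, 4472 and 6431 CPM in aged mice A, B, C and D (log2 0.17 ± 0.19, edgeR adjusted p = 0.534). In myoepithelial cells it was 1628, 1263 and 912 CPM in young mice A, B and C and 1191, 774, 1365 and 788 CPM in aged mice A, B, C and D (log2 -0.21 ± 0.24, adjusted p = 0.536). The groups overlapped in both. The 95% interval of the difference ran from -0.20 to 0.54 and from -0.68 to 0.25. AV luminal cells had the widest spread, with 934, 1092 and 636 CPM in young mice A, B and C and 2531, 415, 1945 and 1925 CPM in aged mice A, B, C and D (log2 1.23 ± 0.49, adjusted p = 0.165), where aged mouse B was the lowest of all 7 mice. HS luminal cells had 2535, 1759 and 1285 CPM in young mice A, B and C and 2669, 1623, 4122 and 2901 CPM in aged mice A, B, C and D (log2 0.72 ± 0.29, edgeR adjusted p = 0.163), with overlap. The 95% intervals, 0.27 to 2.20 in AV and 0.15 to 1.30 in HS luminal cells, lay above 0, and both estimates were slightly above those of H2-K1 in the same types.

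Among the peptide loading genes, the called change was Tapbp in HS luminal cells, with 111, 145 and 109 CPM in young mice A, B and C and 254, 155, 217 and 203 CPM in aged mice A, B, C and D (log2 fold change 0.87 ± 0.18 SE, adjusted p = 0.0213, edgeR). It was lost without young mouse A (log2 0.77, adjusted p = 0.0928), young mouse C (0.80, 0.11) or aged mouse D (0.83, 0.0538). Tap2 in HS luminal cells differed by 0.90 ± 0.33 (adjusted p = 0.129), with the young and aged ranges overlapping. In pericytes the 3 loading genes all had negative estimates, -1.07 ± 0.48 for Tap1, -0.86 ± 0.35 for Tap2 and -0.61 ± 0.23 for Tapbp, none called after adjustment (edgeR adjusted p = 0.156, 0.118 and 0.0928). The summed level of 3 vascular endothelial markers (Pecam1, Cdh5 and Sox17) in pericytes was 1246 to 1365 CPM in young and 547 to 858 CPM in aged mice, without overlap, and all 3 loading genes had a higher mean in vascular endothelial cells than in pericytes. The part of that shift in the pericyte estimates was not tested. The transactivator Nlrc5 passed the filter in vascular endothelial cells alone, where it was 9.23, 14.7 and 17.9 CPM in young mice A, B and C and 14.8, 5.59, 8.91 and 10.8 CPM in aged mice A, B, C and D (log2 -0.07 ± 0.37, adjusted p = 0.905).

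In Mb macrophages 7 members passed the filter and 0 were called, with 3 higher and 0 lower at an unadjusted p under 0.05 in edgeR, and DESeq2 called 1. In T and B cells 4 passed and 0 were called, with 1 higher and 1 lower at an unadjusted p under 0.05, and DESeq2 called 0. All but 1 of these sums held 3 to 19 cells, the exception being the 90 Mb macrophages of young mouse A. Of the types in which members were called, the only ones with a member lower at an unadjusted p under 0.05 were pericytes, with 3 members.

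**Figure D2:**
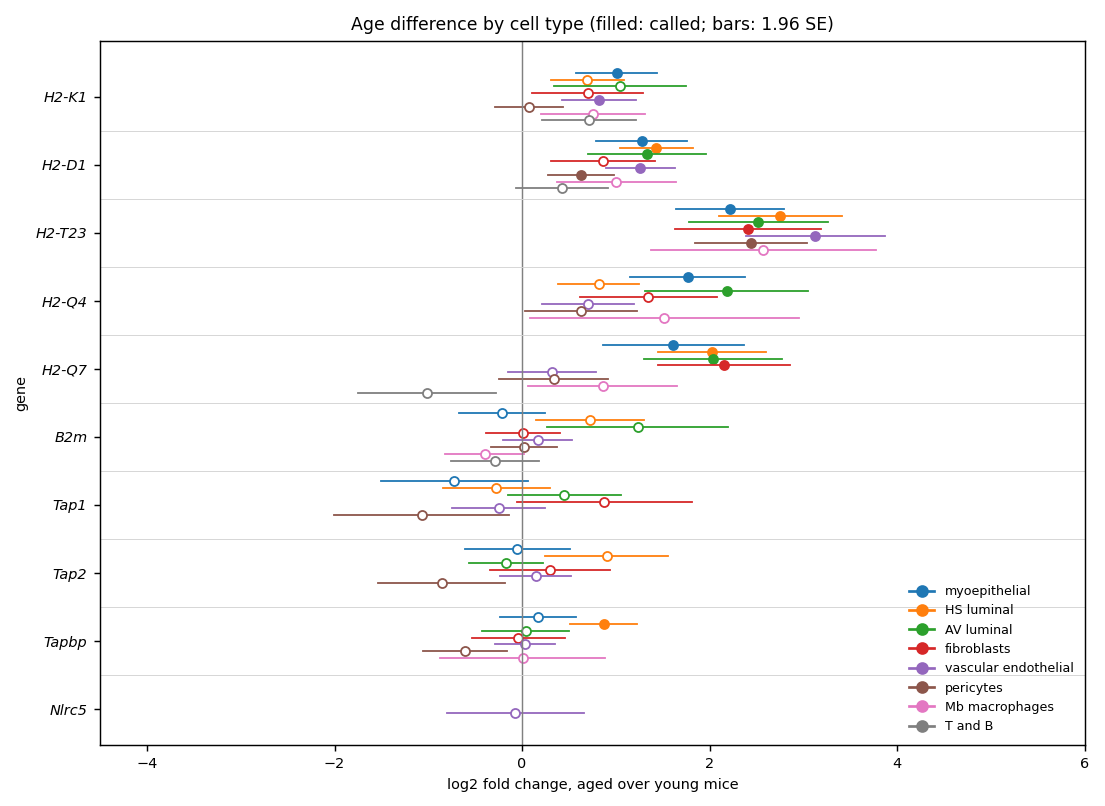
Log2 fold change of aged over young mice for each gene (rows) in each of 8 cell types (colours), with normal 95% intervals, filled where called by edgeR. H2-T23 lies to the right of 0 in all 7 types where it passed the filter, while B2m, Tap1 and Tap2 have no filled point.

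Cell type markers moved with age as well. Over 16 marker lists in the 6 types with called members, each type's own markers included, the summed level did not overlap between ages in 38 of 96 cases, with 29 lower and 9 higher in aged mice. The summed level of 5 leukocyte markers (Ptprc, Coro1a, Laptm5, Cd52 and Tyrobp, each with a UMI somewhere in the type) was 30.2 to 63.0 CPM in young and 0.818 to 6.75 CPM in aged mice in AV luminal cells. In vascular endothelial cells it was 19.1 to 72.8 CPM in young and 0 to 6.98 CPM in aged mice, and in HS luminal cells 9.02 to 14.2 CPM in young and 0 to 5.69 CPM in aged mice. In these types the sum was lower in every aged mouse than in every young mouse. In myoepithelial cells, fibroblasts and pericytes, which also had called members, the young and aged ranges of the leukocyte sum overlapped. For comparison Mb macrophages held 4736 to 6390.4 CPM in young and 2132 to 4179 CPM in aged mice. The epithelial marker Epcam in myoepithelial cells was 371 to 484 CPM in young and 1459 to 2089 CPM in aged mice, without overlap. The AV markers (Mfge8 and Elf5) in myoepithelial cells were 531 to 629 CPM in young and 278 to 356 CPM in aged mice. In AV luminal cells the HS markers (Prlr and Pgr) were 159 CPM or more in each young mouse and 23.7 to 27.9 CPM in aged mice. Pericyte markers (Rgs5, Des and Notch3) in vascular endothelial cells were 98.6 to 346 CPM in young and 5.59 to 66.8 CPM in aged mice. The fibroblast markers (Col1a1, Col3a1 and Pdgfra) were lower in every aged than in every young mouse in all 6 types, fibroblasts included. They were 44.2 to 106 CPM in young and 2.28 to 7.35 CPM in aged mice in myoepithelial cells. In pericytes they were 187 to 227 CPM in young and 11.3 to 75.8 CPM in aged mice. The part of these shifts in the members' age changes was not tested.

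Aged mice also differed among themselves, and aged mouse A had the highest level of many members. Among all 7 mice it ranked first for H2-Q4 in 7 of 8 types, for H2-D1 and H2-Q7 in 6 of 8 and for H2-K1 in 5 of 8. For H2-T23 the first place fell to aged mouse A in 3 types and to aged mouse B in 3. Without aged mouse A the number of members called was again 5 in myoepithelial cells, 4 in HS luminal cells, 3 in vascular endothelial cells, and 2 each in fibroblasts and pericytes, and it was 3 in AV luminal cells.

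**Figure D3:**
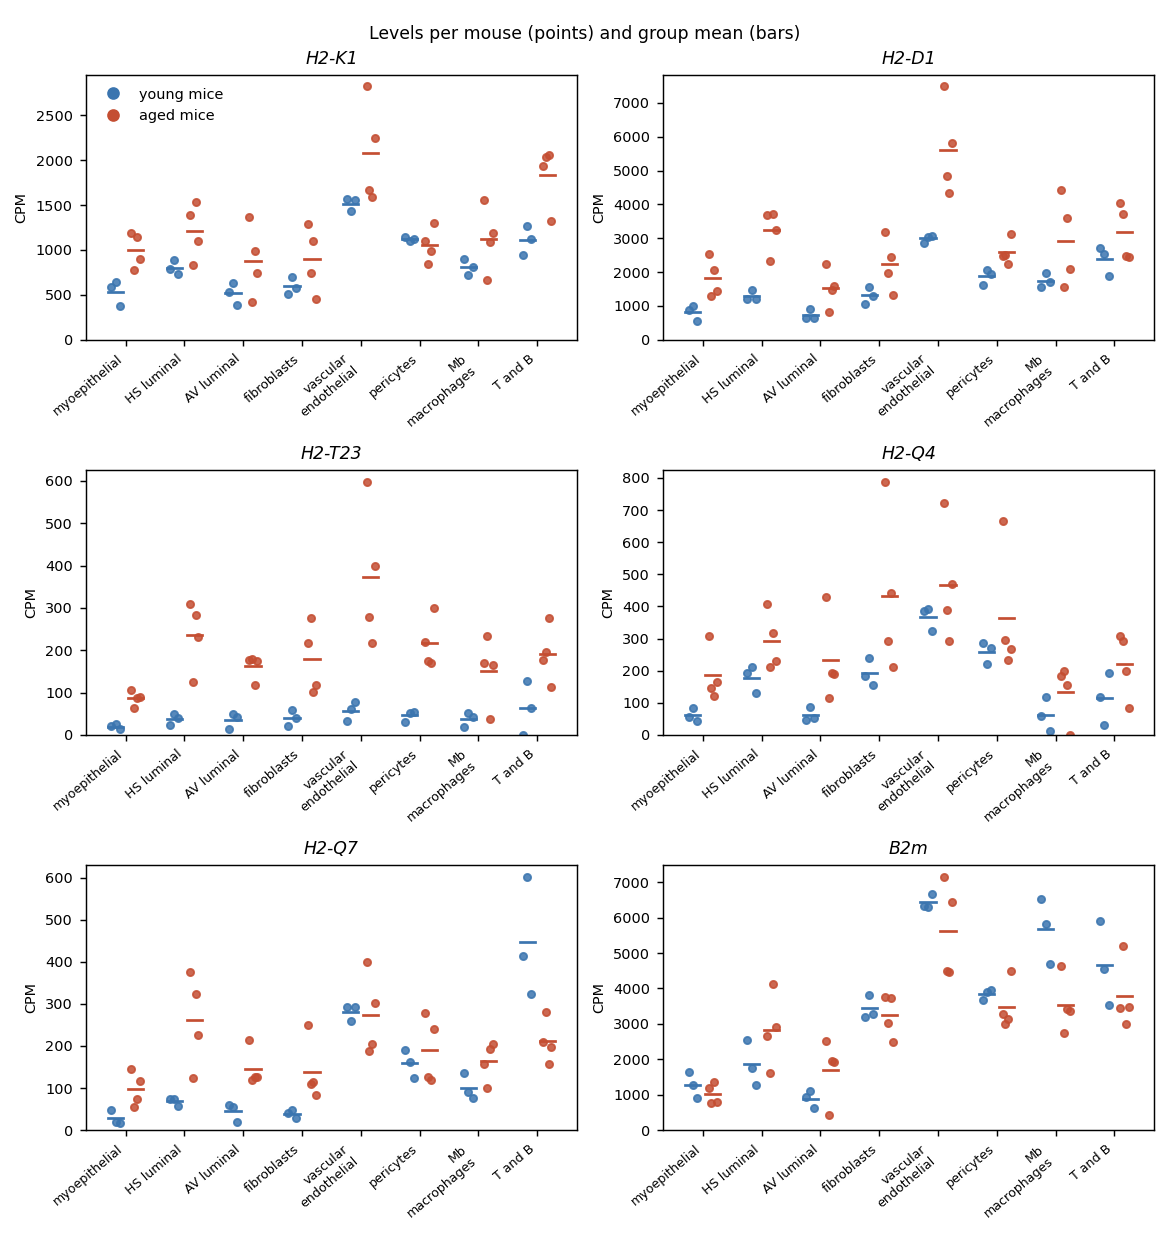
CPM of the 5 heavy chain genes and B2m in 8 cell types, one point per mouse, with bars at the mean of the 3 young and the 4 aged mice and every axis starting at 0. H2-T23 points of aged mice lie above those of young mice in most types, whereas H2-Q7 in T and B cells lies lower in aged mice and B2m overlaps in most types.

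Whether an age difference differed between cell types was tested by an interaction term (edgeR, adjusted p under 0.05, no fold minimum). Between vascular endothelial and AV luminal cells 2 of 10 members differed, against 10.8% of genes. H2-Q7 rose less in vascular endothelial cells, by -1.81 ± 0.34 on the log2 scale (adjusted p = 0.00379), and H2-Q4 by -1.38 ± 0.29 (adjusted p = 0.00725). Without young mouse A the count was 1. H2-D1 had an interaction of 0.00299 with a 95% interval of -0.42 to 0.43, so that a difference beyond that range between the age changes of these types was not seen. For H2-T23 the interval was -0.17 to 1.05.

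Between HS and AV luminal cells 1 of 9 members differed, H2-Q4 (-1.23 ± 0.29, adjusted p = 0.0304), against 2.41% of genes. That count was 0 without young mouse A, B or C or aged mouse C or D, and 2 without aged mouse A. Tapbp (0.85 ± 0.22, adjusted p = 0.0512) and Tap2 (1.18 ± 0.33, adjusted p = 0.0659) had positive estimates that were not called. Between myoepithelial and AV luminal cells 0 of 10 members differed in edgeR, with 2 at an unadjusted p under 0.05 and 0 by DESeq2, against 9.25% of genes, and without aged mouse B the count was 1. Between Mb macrophages and vascular endothelial cells 0 of 9 differed, with 1 at an unadjusted p under 0.05 and 0 by DESeq2, against 2.84%, and without aged mouse A the count was 1. In simulated data that fit recovered 0% of added 2-fold and 1% of added 3-fold differences. The myoepithelial against AV fit recovered 8% and 37%. Neither count of 0 therefore shows that the age changes were alike.

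Ratios of summed counts within each mouse describe the balance between members, free of the library total. H2-D1 exceeded H2-K1 in every mouse and in each of the 8 types. The ratio was 1.52 to 1.66 in young and 2.42 to 2.95 in aged mice in HS luminal cells. It was 1.83 to 2.14 in young and 2.59 to 2.89 in aged mice in vascular endothelial cells and 1.41 to 1.87 in young and 2.26 to 2.96 in aged mice in pericytes. These types and myoepithelial cells (1.49 to 1.56 in young and 1.59 to 2.15 in aged mice) showed no overlap, while the other 4 types did. The heavy chain to light chain balance, the 5 heavy chains over B2m, was 0.799 to 0.824 in young and 1.44 to 1.68 in aged mice in vascular endothelial cells. In myoepithelial cells it was 0.976 to 1.40 in young and 2.56 to 3.60 in aged mice. It did not overlap between ages in 6 of 8 types, the exceptions being HS (0.899 to 1.68 in young and 1.50 to 2.31 in aged mice) and AV luminal cells (1.39 to 1.82 in young and 1.47 to 3.95 in aged mice).

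H2-T22, a nonclassical heavy chain recognised by some gamma delta T cells, is the close neighbour of H2-T23 (chr17:36037128-36042747, minus strand) and was called lower in 5 types. It fell with age in vascular endothelial cells, with 193, 225 and 209 CPM in young mice A, B and C and 125, 69.1, 54.4 and 90.1 CPM in aged mice A, B, C and D (log2 fold change -0.95 ± 0.23 SE, adjusted p = 0.00734, edgeR). In pericytes it was 125, 139 and 133 CPM in young mice A, B and C and 42.1, 47.7, 45.2 and 60.0 CPM in aged mice A, B, C and D (log2 fold change -1.27 ± 0.26 SE, adjusted p = 0.00795, edgeR). Myoepithelial cells (-1.81 ± 0.39), fibroblasts (-1.38 ± 0.31) and HS luminal cells (-0.92 ± 0.24) also fell. AV luminal cells, where H2-T23 rose, differed in H2-T22 by 0.27 ± 0.33 (edgeR adjusted p = 0.693). The ratio of H2-T23 to H2-T22 was 0.166 to 0.368 in young and 4.00 to 4.77 in aged mice in vascular endothelial cells, and the age groups did not overlap in any of the 8 types, where Mb macrophages had 2 aged mice with an H2-T22 count. The sum of both genes was 47.9 to 91.7 CPM in young and 150.3 to 225 CPM in aged mice in AV luminal cells, without overlap, but 225 to 286 CPM in young and 272 to 721 CPM in aged mice in vascular endothelial cells, with overlap. Reads of H2-T genes that match each other could be assigned to either row, and whether that differed between the age groups was not tested.

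**Figure D4:**
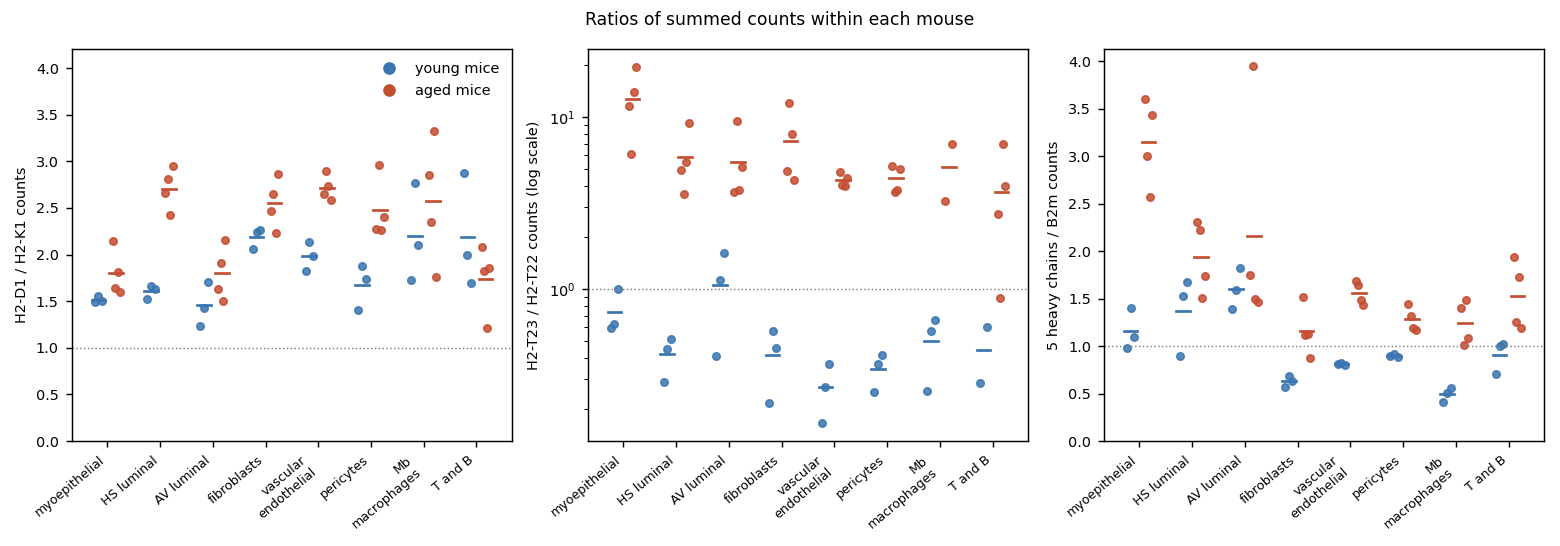
Ratios of summed UMIs within each mouse in 8 cell types, for H2-D1 over H2-K1, H2-T23 over H2-T22 (log axis) and the 5 heavy chains over B2m, with one point per mouse, bars at the group means and a dotted line at 1. On the log axis young mouse A in T and B cells (ratio 0) is left out, as are 2 aged Mb sums without H2-T22. In the middle panel the drawn young values run up to 1.63, and the aged values of all types but T and B cells start at 3.25.

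The rest of the pathway was described from 5 further lists of 34 genes, to be read against the share of all genes called in each type given above. Of the other heavy chains (11 genes), H2-Q6, a near copy of H2-Q7 with which it may share reads, rose in myoepithelial cells (2.48 ± 0.40), HS luminal cells (2.27 ± 0.27), AV luminal cells (2.45 ± 0.62) and fibroblasts (2.98 ± 0.46), the same 4 types in which H2-Q7 rose. H2-Q10 rose in HS (2.20 ± 0.58) and AV luminal cells (3.93 ± 0.85), at very low levels. It was 0.654 to 3.18 CPM in young and 2.37 to 10.9 CPM in aged mice in HS cells, with overlap. In AV cells it was 0 to 0.826 CPM in young and 2.99 to 9.54 CPM in aged mice. H2-M3, which presents formylated peptides, rose in vascular endothelial cells (0.69 ± 0.24). Fcgrt, the neonatal Fc receptor chain, fell in myoepithelial (-0.81 ± 0.27) and AV luminal cells (-1.19 ± 0.24). The immunoproteasome list (5 genes) had 1 call over the 8 types, Psmb10 lower in myoepithelial cells (-1.33 ± 0.38), where 4 of the list passed the filter and 14.8% of all genes were called lower. Folding and trimming (5 genes) had 2, Erap1, the peptide trimming protease, higher in HS luminal cells (1.04 ± 0.28) and the tapasin relative Tapbpl lower in vascular endothelial cells (-0.68 ± 0.23), where 12% of all genes were called lower.

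Transcription factors of class I genes (8 genes) were called in 3 types. Irf1, which binds interferon response elements, rose in AV luminal cells (2.62 ± 0.30) and myoepithelial cells (1.34 ± 0.34). The NF-kappa B subunits Rela and Nfkb1 rose in myoepithelial cells (1.10 ± 0.22 and 1.14 ± 0.22) and vascular endothelial cells (0.63 ± 0.22 and 0.93 ± 0.19), types in which 12.8% and 14.7% of all genes were called higher. In vascular endothelial cells Rfxap, a subunit of the RFX complex, fell by 1.51 on the log2 scale. No gene of the class I receptor list (Cd8a, Cd8b1, Klrd1, Klrc1 and Pirb) passed the filter in these fits. Klrd1, the CD94 chain that reads Qa-1, averaged 521 ± 404 CPM (SD, n = 5) in NK cells and 59.0 ± 58.0 CPM (SD, n = 7) in T and B cells.

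Across 49 sums of at least 20 cells and 2329 genes with a mean of at least 50 CPM, the level of H2-D1 on the log2(CPM + 1) scale was the most like that of H2-K1, with a Pearson correlation of 0.91. The members H2-Q7 (0.78), B2m (0.71), H2-Q4 (0.70), Tapbp (0.62) and H2-T23 (0.61) followed, and Tap2 was at 0.42. The 5 other genes most like H2-K1 were H2-Q6 (0.80), Pim3 (0.73), Tpm3 (0.70), Stx12 (0.70) and Tgoln1 (0.67). These points share mice and libraries, and the correlations are descriptions.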

How the data were processed

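The deposited file held counts, whole numbers of UMIs per gene and cell, made by the authors from 10x Chromium 3′ v2 libraries with Cell Ranger 2.0 on mm10, and filtered by them on UMIs, genes and mitochondrial share. A deposited metadata table gave each cell its mouse and its cell type. Counts were summed here per mouse and type, sums of under 3 cells were left out, and edgeR 4.0.16 (TMM scaling, filterByExpr, quasi-likelihood test, Benjamini-Hochberg adjustment over all genes tested) was run in R 4.3.3, with DESeq2 1.42.0 as an alternative. The mouse was the replicate. Depth was 6652599 to 16999625 UMIs per mouse. The study had run doublet callers, and none was run here. Levels are CPM of the raw sums, and SE is the fold change over the root of the F statistic. The fits were tested on simulated data, where age fits recovered 12% (Mb macrophages) to 57% (vascular endothelial cells) of added 2-fold differences. The members and lists were chosen with earlier results of these data known. Named genes were all members, the called genes of the other lists (at most 4 per list and fit, by size of change), the class I receptor Klrd1, and the 5 genes most like H2-K1. A called gene of the transcription factor list is not reported here. H2-T22 levels and Epcam were added after their values were seen. Promoters came from RefSeq (GRCm38.p6) and positions from GENCODE (GRCm38). Tap2 and Nlrc5 promoters were not used here.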

Additional observations from a re-analysis of the deposited data

Results flagged for a closer look

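Among 79 groups of 4 aged mice, 8 had a mouse set apart from the other 3 by Dixon's ratio (its gap to the nearest mouse over the range of the group). About 1 in 20 such groups is flagged by chance. Aged mouse A was the highest for H2-Q4 in pericytes (0.850), H2-Q7 in AV luminal cells (0.920), and Tapbp in AV luminal cells (0.854) and vascular endothelial cells (0.925). Aged mouse C was the lowest for H2-T23 in AV luminal cells (0.937), and aged mouse D the lowest for H2-K1 in T and B cells (0.842). Among aged mice Nlrc5 was counted in mouse A alone in fibroblasts (ratio 1, 5.17 CPM) and in mouse C alone in Mb macrophages (ratio 1, 38.7 CPM).

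The age difference itself differed between cell types for H2-Q4 and H2-Q7, which rose less in vascular endothelial than in AV luminal cells (interaction -1.38 and -1.81 on the log2 scale), and for H2-Q4, which rose less in HS than in AV luminal cells (-1.23).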

How the results depend on the processing

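No direction changed in any of the 279 refits of the 20 called age differences, and 252 of these kept the call. Of the 20, 14 kept it in every alternative run, the exceptions being H2-D1 in AV luminal cells and pericytes, H2-Q4 in AV luminal cells, H2-T23 and H2-Q7 in fibroblasts and Tapbp in HS luminal cells. Leaving out 1 mouse gave 2 to 6 members called in AV luminal cells, 1 to 2 in pericytes, and, among differences in the age effect, 1 to 3 for vascular endothelial against AV luminal cells, 0 to 2 for HS against AV, 0 to 1 for myoepithelial against AV and 0 to 1 for Mb macrophages against vascular endothelial cells. Between Mb macrophages and vascular endothelial cells it gave 1 to 3. Thinning to equal totals left 0 in fibroblasts and 1 in pericytes, where leaving out ribosomal protein and mitochondrial genes or the filter on low counts also left 1. Without that filter 4 members differed between myoepithelial and AV luminal cells, 7 between Mb macrophages and vascular endothelial cells, and the age effect differed for 2 (HS against AV) and 1 (myoepithelial against AV). RLE size factors gave 7 for Mb macrophages against vascular endothelial cells and 2 for the age effect in HS against AV. DESeq2 gave 6 for the former and 1 member with age in Mb macrophages. Without the mouse term 2 members differed between HS and AV and 0 between myoepithelial and AV luminal cells. The cause was not tested.

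The letters A to C name different animals in the 2 age groups. Deviations of mice with the same letter correlated between -0.32 and 0.19 over 24 pairs, with 3 pairs over 0.1 and every pair over 0.1 in 0 of 8 types. Whether mice of one letter shared a batch is not given by the labels and cannot be told from these correlations. With the letter as a replicate block 2 members were called in AV luminal cells, 0 in fibroblasts and 1 in pericytes. A minimum of 10 cells per mouse could not be fitted in Mb macrophages or T and B cells and removed no mouse elsewhere. Mean levels moved by less than 1 SD in 61 of 66 cases under TMM scaling and in 64 of 130 without ribosomal protein and mitochondrial genes, whose removal raises every CPM. Without the filter on low counts the median log2 fold change of all genes was -0.36 in fibroblasts and -1.09 in Mb macrophages, and it stayed within 0.05 of 0 in the filtered fits. Intervals cover the spread between these mice.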
